A study of Mus musculus with 9 samples.

Results

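The comparison set mouse sublingual salivary gland 7 days after 10 Gy of radiation against gland that received no radiation. Its members were the 6 libraries of those groups, 3 per group, out of 9 libraries in the series, chosen by title and treatment label. All samples are labelled with the wild-type genotype (WT), and no other agent or allele separates the groups in the labels. The remaining 3 libraries, irradiated likewise and taken at day 14, entered only the estimate of spread. RNA was extracted from 4 tissue sections of 50 µm, so each library mixes every cell type of the gland. The labels give neither age nor sex nor hour of collection, and do not say that the libraries of a group came from separate animals. P-values therefore measure the spread between these libraries, which may be partly technical.

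The sublingual gland is built mainly of mucous acini, which make and secrete highly glycosylated mucins, joined to ducts that modify the saliva. Secretory cells depend on protein synthesis, folding and vesicle traffic, on ion channels that drive fluid, and on tight junctions that seal the lumen. Ionising radiation is used against head and neck tumours, and loss of saliva is a known consequence for glands in the beam.

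Total counts ran from 15962399 to 18977590 per library over 54532 listed genes. The 15348 genes that passed a filter on low counts were tested. Levels below are CPM, read counts relative to library size after trimmed-mean scaling, and differences are log2 fold changes, day 7 over control, with their standard error (SE). A gene was called when its adjusted p, from edgeR's quasi-likelihood test with Benjamini-Hochberg adjustment over all tested genes, was under 0.05. The sublingual acinar markers summed to between 253043 and 350743 CPM in the controls and between 234765 and 251731 CPM at day 7, so the labelled tissue was present in every library. Of 10 tested acinar markers 7 were called lower (Muc19, Dcpp1, Dcpp2, Dcpp3, Aqp5, Bhlha15 and Spdef) and 1 higher (A2ml1), with a median log2 fold change of -0.42. After the exonic-length correction described below that median was -0.32. Marker sums and calls here and below are without correction. Parotid serous markers summed to between 13245 and 14148 CPM in the controls and between 7346 and 8742 CPM at day 7, with 2 of 6 called lower (Bpifa2 and Aqp5). In bulk tissue, fewer cells of a type and less RNA per cell cannot be told apart. Control replicate 3 stood apart from the other controls, with 648 CPM of submandibular granular duct markers against 298 to 354 CPM in the other 5 libraries, and the lowest control sum of acinar markers. The part of that library's makeup in each result was not tested, except where values without it are given. The 20 most abundant genes took 38.0% to 38.8% of control counts and 31.6% to 32.7% of day 7 counts. Erythrocyte markers reached 458 CPM in control replicate 2 and between 49.4 and 140 CPM elsewhere.

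At day 7, 4692 genes (30.6% of those tested) were called, 2419 higher (15.8%) and 2273 lower (14.8%). Most differences were small: the median absolute log2 fold change of the called genes was 0.56, and 412 higher and 135 lower genes changed by 1 or more on the log2 scale. The day 7 libraries all lay above all controls for 3404 of the 15348 tested genes and below them for 3327. Statements below that a gene's groups did not overlap are to be read against these counts. Without day 7 replicate 1, 3106 genes were called, and without control replicate 1 the higher calls came to 1577. The median over all genes was 0.02. Direction followed gene length closely, so the calls are given again after an offset per library removed trends with exonic length (the summed exons of a gene) and GC content. With that correction 3205 genes (20.9%) were called, 1283 higher (8.36%) and 1922 lower (12.5%), and 2379 of the 4692 kept their call and direction. A second correction, for coding length, 3' UTR length and GC content, was chosen after seeing the data and could be made for 13443 protein-coding genes. It left 2159 called (16.1%), 959 higher (7.13%) and 1200 lower (8.93%). Genes called the same way in all 3 fits numbered 641 higher and 670 lower. A correction by length also removes any real change that tracks length, so the fits are shown side by side below.

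Long genes were higher and short genes lower at day 7. In the shortest decile of genes (median exonic length 885 bases), 2.22% were called higher and 24.6% lower, and the median log2 fold change was -0.37. In the longest decile (median 12030 bases), 43.5% were called higher and 1.43% lower, with a median of 0.38. Between those ends the median was higher in each successive decile. Across genes, Spearman's rank correlation of change with exonic length was 0.423, given as a description because genes of one library share its RNA and its processing. The mean exonic length of a counted read's gene was 4293, 4363 and 4358 bases in the controls and 5347, 5256 and 5205 bases at day 7. Without the 20 most abundant genes of the series the gap was smaller. That mean was 4960, 5035 and 5166 bases in the controls and 5852, 5668 and 5588 bases at day 7. No day 7 library overlapped the controls on either measure.

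**Figure D1:**
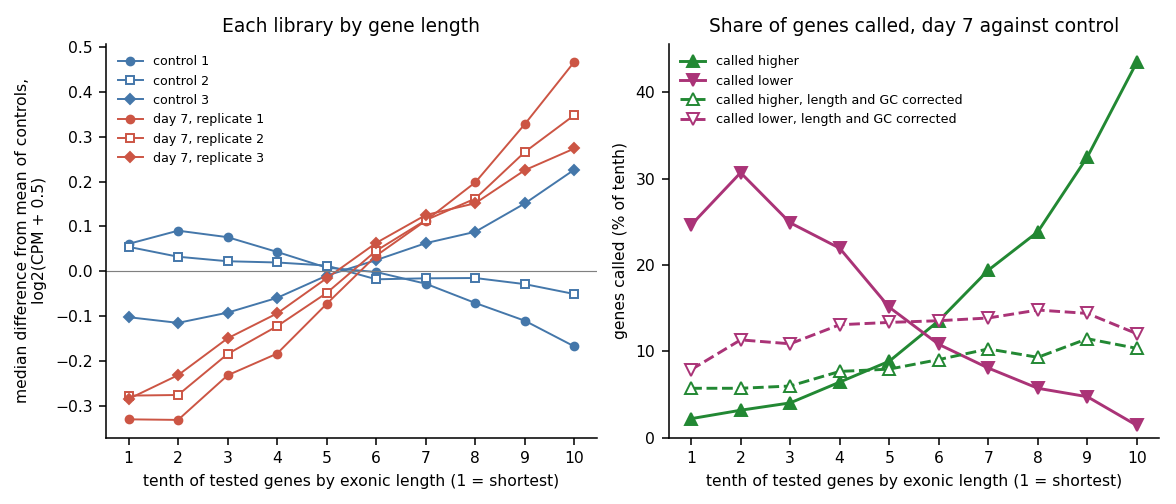
Left, the median difference in log2(CPM + 0.5) for each decile of tested genes by exonic length, 1 line per library. Day 7 lines are set against the mean of the controls, and each control line against the mean of the other controls. Steepness is therefore not on a common scale between the groups. Right, the percent of genes called in each decile, before (filled) and after (open) the length and GC correction. All 3 day 7 libraries climb from left to right, control replicate 3 climbs less, and in the right panel the crossing pattern flattens after correction.

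The controls also differed among themselves along the same axis. Set against the other controls, control replicate 3 had a correlation of 0.282 with exonic length, while control replicates 1 and 2 had -0.211 and -0.0976. The day 7 libraries, set against all controls, had 0.444, 0.404 and 0.368. Every day 7 value exceeded every control value. Each control was left out of its own baseline, so distances between these values are not on a common scale. By mean exonic length without the 20 most abundant genes, control replicate 3 (5166 bases) lay nearer to control replicate 2 (5035) than to the lowest day 7 library (5588). With GC content the correlation was of the opposite sign for the group difference (-0.307), control replicate 3 (-0.276) and control replicate 1 (0.329), but not for control replicate 2 (-0.0412). Without control replicate 3 the correlation with exonic length was 0.410.

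Among the parts of a transcript, the protein-coding stretch tracked the change most. The correlation was 0.520 with coding length, 0.279 with 3' UTR length and 0.118 with 5' UTR length over 13508 genes. In a joint rank regression the standardised coefficients were 0.509 for coding length, 0.125 for 3' UTR length, 0.0496 for 5' UTR length and -0.304 for GC content. Genes in the shortest decile by coding length (median 405 bases) had a median log2 fold change of -0.45 and 47.1% were called lower. In the longest decile by coding length (median 4728 bases) the median was 0.44, with 50.1% called higher and 0.371% lower. After the exonic-length correction the correlation with coding length was 0.334, and after the coding-length correction it was 0.000646. Calls made after the exonic-length correction are therefore not free of the trend with coding length.

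The rank correlation was higher among abundant genes, and slopes were not computed. The correlation with exonic length was 0.206 in the lowest quartile of expression, 0.462 and 0.625 in the middle quartiles and 0.665 in the highest. It was 0.510 among protein-coding genes, 0.192 among lincRNAs, 0.0468 among antisense RNAs, 0.298 among processed pseudogenes, 0.150 among processed transcripts and -0.0269 among the 267 genes of the annotation's TEC class, models that await experimental support. These values describe the classes, and the differences between them were not tested.

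The same trend ran inside gene lists by function, protein complexes among them. Over 45 such lists the correlation of change with exonic length was positive in 44, the exception being keratins at -0.00699. The median within a list was 0.504, near the 0.510 of all tested protein-coding genes. After the exonic-length correction the median within-list correlation was -0.0206. Across lists, the median change and the median length of the members had a correlation of 0.833. Of the list medians, 22 lay above 0 and 23 below, and 39 kept their sign after the exonic-length correction.

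RNA polymerase II, which transcribes all messenger RNAs, shows it plainly. Polr2a, its largest catalytic subunit (chr11:69733997-69758637, minus strand, exonic length 7067 bases), stood at 70.0, 73.2 and 69.2 CPM in the controls and 125, 135 and 113 CPM at day 7. Polr2k, the shortest member at 624 bases, read 11.3, 12.1 and 8.14 CPM in the controls and 5.21, 4.66 and 6.17 CPM at day 7. The groups did not overlap for either subunit, and they moved apart: 0.81 ± 0.09 (SE) for Polr2a, adjusted p = 1.6e-05, and -0.97 ± 0.21 for Polr2k, adjusted p = 0.0017. Of the 12 subunits 2 were called higher (Polr2a and Polr2b) and 9 lower, with 1 not called. Polr2b lost its call without day 7 replicate 3 (0.39). In all 3 fits Polr2a was called higher and 3 subunits lower, Polr2k, Polr2l and Polr2c. Polr2c, at 5256 bases, fell by 0.55 on the log2 scale, against the direction of the longest genes.

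Mediator, the complex that bridges transcription factors and polymerase, divided the same way, with 6 of 30 tested subunits higher, 8 lower and 16 not called. Med12, part of its kinase module, went from 27.5, 28.3 and 30.7 CPM to 52.8, 58.2 and 46.1 CPM, a change of 0.86 ± 0.12 with adjusted p = 5.3e-05. Med28 went the other way, from 60.3, 58.0 and 49.7 CPM to 38.7, 41.8 and 33.2 CPM. Both held in all 3 fits. The lower calls depended on single libraries, being 3 without control replicate 2 and 4 without day 7 replicate 1. The nuclear pore complex had the highest correlation with exonic length of the 45 lists, 0.746, with 9 of 28 members higher, 3 lower and 16 not called. Nup205, a scaffold of the pore's inner ring, rose by 0.75 ± 0.15, while Sec13, shared with vesicle coats, fell by 0.41. After the coding-length correction 1 member was higher and 1 lower, and Nup54, named after its values were seen, was higher in all 3 fits, though not without day 7 replicate 3 (0.53). Sec13 lost its call without day 7 replicate 1 (-0.30). The 3 lower calls were 0 without day 7 replicate 1 and 1 without day 7 replicate 2.

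**Figure D2:**
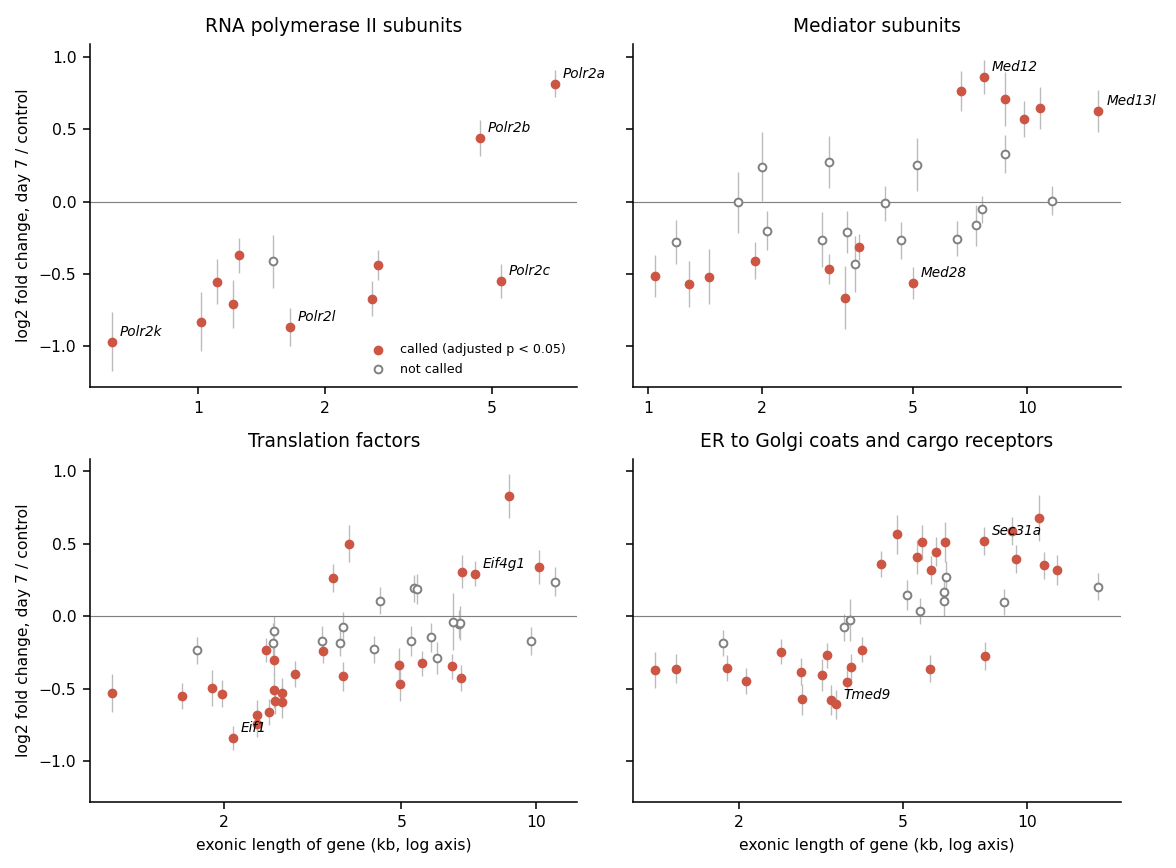
Log2 fold change at day 7 with its SE against exonic length in kb (log axis) for members of 4 gene lists, with called genes filled. Longer genes tend to sit higher, as with Polr2a at 0.81 and Polr2k at -0.97, though Polr2c at 5256 bases lies below 0.

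The 12 largest rises and 12 largest falls, among called genes of at least 5 CPM whose groups do not overlap, lay between 1.62 and 2.68 for rises and between -3.55 and -1.32 for falls. Vcl, vinculin, which ties actin to adhesion sites, read 6.88, 10.98 and 14.6 CPM in the controls and 52.997, 48.8 and 36.6 CPM at day 7. Ctnnal1, an alpha-catenin and vinculin relative, read 12.3, 10.6 and 12.7 CPM against 37.6, 36.8 and 35.4 CPM. The log2 fold changes were 2.09 ± 0.25 for Vcl and 1.62 ± 0.14 for Ctnnal1, and both genes were called in the 3 fits. Without control replicate 3, its highest control, the Vcl change was 2.35.

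Other risers were transporters, a kinase and transcription factors. Slco4c1, an organic anion transporter, read 4.32, 5.32 and 5.31 CPM in the controls and 23.1, 18.5 and 21.5 CPM at day 7 (log2 fold change 2.08 ± 0.17, adjusted p = 5.4e-07). Plagl1, an imprinted zinc-finger transcription factor, read 7.31, 6.74 and 9.27 CPM against 27.8, 22.3 and 21.8 CPM (1.62 ± 0.17). Both groups were tight for these genes. Wee1, a kinase that holds back entry into mitosis, read 4.45, 8.56 and 14.0 CPM against 31.2, 30.9 and 24.1 CPM (1.67 ± 0.31). Slc10a5, a solute carrier, had a change of 1.72 ± 0.40 that lost its call without control replicate 1 (1.49), control replicate 2 (1.62) or day 7 replicate 2 (1.67). Pik3c2a, a phosphoinositide kinase, changed by 1.66 ± 0.49 and lost its call without control replicate 1 (1.39), control replicate 2 (1.38), day 7 replicate 1 (1.4999) or day 7 replicate 3 (1.58), and under the coding-length correction. It also lost it without either of day 14 replicates 1 and 3, with the change at 1.66.

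Clock genes were at both ends. Per3 and Per2, which repress their own transcription, rose by 2.68 ± 0.33 and 2.48 ± 0.40, and Dbp, a clock output factor that binds D-box sites, by 1.62 ± 0.13. Arntl, the activator of the loop, read 12.1, 13.2 and 11.8 CPM in the controls and 0.814, 1.21 and 1.13 CPM at day 7. It fell by 3.55 on the log2 scale, 11.7-fold, the largest change of the 24. Nfil3, which represses D-box genes, fell by 2.47. That the groups did not overlap for these 5 genes follows from the rule that chose the 24. The labels give no hour of collection, so the part of hour in these values was not tested.

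The upstream window of Per3 is printed because it holds the D-box, TTATGTAA, at 2 places; of 27025 RefSeq windows searched on both strands, 0.877% hold that motif. The stretch runs from position -250 to -106 from the RefSeq start on GRCm38.p6, chr4:151044771-151044915, minus strand, with the D-boxes in capitals.
Per3: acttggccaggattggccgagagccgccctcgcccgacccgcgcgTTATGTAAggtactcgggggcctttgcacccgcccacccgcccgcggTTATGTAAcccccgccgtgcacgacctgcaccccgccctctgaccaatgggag
Of the 12 risers 8 had a window, and Per3 alone held the D-box. A match is a description of letters, not evidence that a factor bound there.

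Tjp3, ZO-3, which anchors tight junction strands to the cytoskeleton (chr10:81273207-81291581, minus strand), read 80.9, 65.6 and 66.6 CPM in the controls and 25.3, 29.1 and 30.3 CPM at day 7. That was a change of -1.33 ± 0.12, adjusted p = 8.5e-07, and the call held in all 3 fits. Tppp3, a tubulin-binding protein, fell by 1.33, and Lingo4, a leucine-rich repeat membrane protein, fell by 1.55. Trp53i11, first described as induced by p53, fell by 1.61, from 89.1, 80.7 and 54.1 CPM to 20.9, 22.005 and 30.3 CPM. Retnla, a resistin-like protein made by alternatively activated macrophages, read 14.1, 12.1 and 14.9 CPM against 3.58, 0.988 and 2.47 CPM.

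Scgb2b27, a secretoglobin, fell by 1.87 ± 0.32 on the log2 scale. Its neighbour Scgb1b27 varied widely between libraries, at 1785, 6199 and 10231 CPM in the controls and 615, 1297 and 424 CPM at day 7. The change of -2.96 ± 0.73 lost its call without control replicate 2 (-2.95), control replicate 3 (-2.37), day 7 replicate 1 (-2.82) or day 7 replicate 3 (-2.67), and after the coding-length correction. Cst10, a cystatin, fell by 1.32. Secretoglobin genes are close copies of one another, so reads could be split among them. Of the 24 genes, 12 overlap a gene on the other strand, among them Vcl (with Ap3m1), Tjp3 (with Apba3) and Dbp (with Sphk2). The strand setting of the counts is not given in the sources used here, so reads from such partners cannot be told apart.

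**Figure D3:**
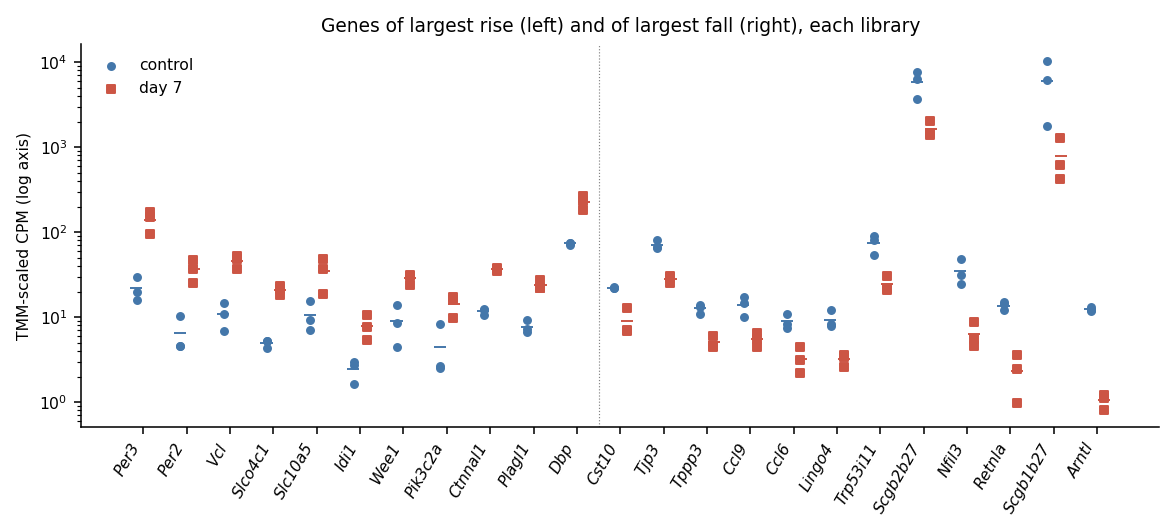
Scaled CPM (log axis) of 11 of the 12 genes of largest rise and the 12 of largest fall, with 1 point per library and a bar at each group mean. The groups are separate for each gene by the rule of choice, and Scgb1b27 shows the widest spread among controls, 1785 to 10231 CPM.

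The gene lists below were chosen with earlier results of these data known and leave aside the cell cycle, p53, MHC and ribosomal protein lists. Each list's counts can be read against the background of 15.8% higher and 14.8% lower among all tested genes, and the same shares after each correction. The lists include 1391 distinct tested genes.

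Genes for remodelling chromatin were mostly higher before correction and mostly not called after it. Of 48 remodellers and histone-modifying enzymes, 32 were called higher, none lower and 16 not called, with a median log2 fold change of 0.44 against 0.02 for all genes. Their median exonic length was 12334 bases, and the count was 21 without control replicate 2 and 21 without day 7 replicate 1. With exonic length corrected, 15 were higher and 4 lower, and after the coding-length correction 4 were higher and 8 lower with a median of -0.05. Chd6, a helicase of the CHD family, read 58.8, 72.6 and 79.0 CPM in the controls and 178, 152 and 120 CPM at day 7 (1.10 ± 0.13). Ep300, a histone acetyltransferase, read 25.6, 22.8 and 33.3 CPM against 62.5, 51.9 and 50.0 CPM (1.00 ± 0.14). Chd6, Ep300 and Arid1a were higher in all 3 fits, with 1 more member, while Ash1l, a histone methyltransferase, was at 0.05 after the coding-length correction.

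RNA-processing lists split by size. Among 37 spliceosome proteins 20 were lower, 4 higher and 13 not called, with a median of -0.40. The small Sm protein Snrpd3 fell by 0.86 ± 0.13, and the large helicase Snrnp200 rose by 0.59 ± 0.11. Only 3 of the lower calls held in all 3 fits. Of 34 SR and hnRNP proteins, which guide splice-site choice, 12 were higher, 3 lower (1 without day 7 replicate 1) and 19 not called. The exonic-length correction turned that balance, to 3 higher and 6 lower, and the coding-length correction left 6 higher and 2 lower. Mbnl2, a muscleblind splicing regulator, stood at 76.4, 72.9 and 102 CPM in the controls and 175, 154 and 177 CPM at day 7. Its change of 1.01 ± 0.13 was 0.71 after the exonic-length correction and 0.98 after the coding-length correction. Mbnl1, its paralogue, rose by 0.70 ± 0.11. It lost its call after the exonic-length correction (0.15) but not after the coding-length one (0.41).

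Histones of the replication-dependent class were scarce, and 15 of 34 listed genes were tested. Hist2h4, Hist1h1e and Hist4h4 were higher in all 3 fits, and Hist1h2bc was lower in the uncorrected fit alone. Hist1h1e, a linker histone, read 1.89, 2.49 and 3.16 CPM in the controls and 4.56, 4.66 and 4.72 CPM at day 7. Hist1h2bc lost its call without day 7 replicate 1 (-0.35). The higher count of 3 was 0 without control replicate 1 and 1 without control replicate 2 or without day 7 replicate 2, and core histone genes are near-identical copies whose reads can be split.

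Translation factors were more often lower than higher in each fit, though the genes called were not all the same. Those lower both without correction and after the exonic-length correction numbered 15. Of 46, 22 were lower, 6 higher and 18 not called, with a median of -0.23. After the exonic-length correction 22 were lower and 3 higher, and after the coding-length correction 17 were lower and none higher; 10 were lower in all 3 fits. Eif1, which helps select the start codon, read 422, 397 and 388 CPM in the controls and 237, 221 and 215 CPM at day 7, a change of -0.84 ± 0.08. Eef1b2, an exchange factor of elongation, changed by -0.66 ± 0.09, and by -0.51 after the coding-length correction. The 6 higher calls dropped to 2 without control replicate 1, control replicate 2 or day 7 replicate 2, and to 3 without day 7 replicate 3 or day 14 replicate 1. Of 22 cytosolic aminoacyl-tRNA synthetases, which charge tRNAs, 5 were higher and none lower, and Iars, for isoleucine (0.74 ± 0.13), and Dars, for aspartate (0.56 ± 0.11), were higher in all 3 fits. The 5 were 3 without control replicate 1 or without day 7 replicate 3.

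The proteasome, which degrades ubiquitin-tagged proteins, was lower in most subunits. Of 32 subunits 26 were called lower, none higher and 6 not, with a median of -0.45, and the medians of the 3 day 7 libraries were -0.55, -0.43 and -0.38 from the control mean. With exonic length corrected, 17 were lower, and after the coding-length correction 15; 11 were lower in all 3 fits. Psmb6, a catalytic-ring subunit, read 119, 111 and 96.6 CPM in the controls and 61.4, 70.0 and 69.3 CPM at day 7 (-0.70 ± 0.10). Psmb7, another, changed by -0.69 ± 0.12 and by -0.82 after the exonic-length correction. The longest subunit gene, Psmd1, was at 0.18 ± 0.11 and not called.

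Very large ubiquitin ligases, which tag proteins for that machine, went the other way until coding length was taken into account. Of 26, 19 were higher, none lower and 7 not called, with a median of 0.50. With exonic length corrected, 8 were higher and 1 lower, and after the coding-length correction 1 was higher and 3 lower, with a median of -0.09. Nedd4, a HECT-type ligase, was the one higher in all 3 fits, from 308, 317 and 378 CPM to 609, 579 and 495 CPM (0.75 ± 0.11). Herc2, with its long coding stretch, rose by 0.79 ± 0.12 and was at 0.22 after the coding-length correction.

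Of 31 genes listed as heat shock chaperones and their partners, 12 were lower, 2 higher and 17 not called. The 2 higher genes were not cytosolic chaperones: Hspa9 is the mitochondrial Hsp70, and Rbm3 is a cold-inducible RNA-binding protein. The 2 higher calls were 1 without control replicate 1 or day 7 replicate 2 and 0 without control replicate 2 or day 7 replicate 3. The lower count was 11 after either correction, and 8 held in all 3 fits. Hspa8, the constitutive Hsp70 (chr9:40800984-40810087, plus strand), read 932, 806 and 814 CPM in the controls and 522, 550 and 571 CPM at day 7. Its change of -0.64 ± 0.09 was -0.76 after either correction. Hspb8, a small heat shock protein that works with Bag3, read 234, 227 and 238 CPM against 133, 128 and 153 CPM. The cochaperones Fkbp4 (-0.58 ± 0.10) and Stip1 (-0.59 ± 0.10), both partners of Hsp90, were also lower in all 3 fits. For each of these 4 genes every day 7 library lay below every control, as for 3327 of the 15348 tested genes. Of the 15 TRiC and prefoldin genes, which fold actin and tubulin, 7 were lower and none higher, and 4 were lower without control replicate 2, day 7 replicate 1 or day 7 replicate 2.

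Mitochondrial ribosomal and import proteins, with median exonic lengths of 2255 and 3044 bases, were lower or not called before correction. Of 49 mitochondrial ribosomal proteins 34 were lower and none higher, with a median of -0.46, and 22 were lower without day 7 replicate 1. After the coding-length correction 9 were lower and the median was -0.19. Mrpl9 changed by -0.69 ± 0.11, from 44.2, 46.0 and 37.2 CPM to 26.1, 27.1 and 25.6 CPM, and was lower in all 3 fits. Of 26 import and contact-site proteins 16 were lower and none higher (10 without control replicate 1), and 9 held in all 3 fits. Tomm7, of the outer-membrane translocase, changed by -1.04 ± 0.16. Immt, the longest of them, was at -0.00 ± 0.09 without correction but at -0.50 after the exonic-length correction.

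Of 23 glycolysis genes 7 were lower and none higher, and Tpi1 (-0.59 ± 0.10) and Ldha (-0.43 ± 0.09) were lower in all 3 fits. The 7 were 4 without control replicate 1 or without day 7 replicate 1. Of 25 citric acid cycle genes 8 were lower and 2 higher, Idh1 and Pdha1, and Sdhc and Dlst were lower in all 3 fits. Dlst lost its call without control replicate 1 (-0.26) or day 7 replicate 1 (-0.28), Idh1 without day 7 replicate 1 (0.33), and Pdha1 without control replicate 1 (0.24) or day 7 replicate 2 (0.31). The 8 were 5 without control replicate 1, control replicate 2 or day 7 replicate 1, and the 2 were 1 without control replicate 1 or without day 7 replicate 2.

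Sterol synthesis had a median of 0.56, the highest of the 45 lists in this fit and after either correction. It was not the highest without day 7 replicate 1 (0.39, against 0.47 for basement membrane genes and 0.41 for large ubiquitin ligases) or without control replicate 3 (0.56, against 0.59 for the ligases). With a minimum of 1 CPM it was 0.46 against 0.51 for the ligases, and by limma-voom 0.49 against 0.50 for basement membrane genes. Of 24 tested genes 14 were higher, 2 lower (Ebp and Pmvk) and 8 not called. The exonic-length correction left 10 higher and the coding-length correction 12, with medians of 0.44 and 0.48; 9 were higher in all 3 fits. The pathway turns acetyl-CoA into cholesterol through mevalonate, and its genes are driven by the transcription factor Srebf2, which Insig1 helps hold in the endoplasmic reticulum. Idi1, which interconverts the isoprenoid building blocks, read 1.64, 2.96 and 2.77 CPM in the controls and 10.6, 7.63 and 5.37 CPM at day 7 (1.68 ± 0.30). Cyp51, which removes a methyl group from lanosterol, read 17.6, 15.03 and 17.9 CPM against 40.3, 30.1 and 24.5 CPM (0.91 ± 0.16). Insig1 read 297, 371 and 362 CPM against 653, 621 and 448 CPM (0.74 ± 0.14). In all 3 genes the groups were apart, day 7 replicate 1 was highest and day 7 replicate 3 lowest. The same held for Lss, lanosterol synthase (0.85 ± 0.15). The higher count was 9 without day 7 replicate 1, and the 2 lower calls were 1 without control replicate 1 or without any 1 day 7 replicate.

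The upstream window of Hmgcs1 is shown because it was the 1 of 9 windows of higher sterol genes to hold the sterol response element TCACNCCAC, which 1.03% of all windows hold. Hmgcs1, an early synthase of the mevalonate route, named here after its values were seen, rose from 17.9, 20.1 and 29.1 CPM to 50.5, 39.5 and 30.5 CPM. The stretch runs from position -182 to -84 from the RefSeq start on GRCm38.p6, chr13:119690169-119690267, plus strand, with the element in capitals.
Hmgcs1: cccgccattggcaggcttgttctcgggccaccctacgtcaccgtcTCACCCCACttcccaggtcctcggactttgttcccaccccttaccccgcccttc
The CCAAT box, letters CCAAT on either strand, was in 8 of 9 windows of higher sterol genes, in 7 of 8 windows of the other sterol genes, and in 34.3% of all windows. Both groups of sterol genes held it in nearly all their windows.

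Of 25 fatty acid and triglyceride synthesis genes 11 were higher, 1 lower (Elovl1, which lost its call without control replicate 1 or 2 or day 7 replicate 1 or 3, at -0.29 to -0.25) and 13 not called, and 6 were higher in all 3 fits. Acly, which makes cytosolic acetyl-CoA, read 418, 440 and 443 CPM in the controls and 673, 780 and 748 CPM at day 7 (0.76 ± 0.10). Fasn, fatty acid synthase, rose by 0.73 ± 0.11, and Acacb, the mitochondrial-surface acetyl-CoA carboxylase, by 0.67 ± 0.09. Acaca, the cytosolic carboxylase and the longest gene of the list, was not called at -0.29 ± 0.16 and was at -0.91 after the coding-length correction. Of 33 fatty acid oxidation and peroxisome genes 4 were higher, 1 lower (Eci1; 2 lower without control replicate 3) and 28 not called, with a median of -0.01; the exonic-length correction gave 5 higher and 7 lower. The 4 were higher in all 3 fits, among them Cat, catalase (0.58 ± 0.10), Cpt1a, which admits fatty acids to mitochondria (0.69 ± 0.12), and Ehhadh, a peroxisomal enzyme (0.63 ± 0.14). Cat read 224, 226 and 214 CPM in the controls and 330.1, 343 and 319 CPM at day 7, with no overlap between the groups. It has an exonic length of 2613 bases, and its change was 0.71 after the exonic-length correction.

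Of 35 genes of glutathione and thioredoxin defence, 17 were lower, 2 higher and 16 not called, with a median of -0.29. The exonic-length correction left 11 lower with a median of -0.18, and the coding-length correction 5 lower with a median of -0.04; 4 lower calls held in all 3 fits. Txn1, thioredoxin, read 91.4, 86.5 and 73.3 CPM in the controls and 47.4, 48.5 and 47.7 CPM at day 7 (-0.81 ± 0.10). Gstt1, a glutathione transferase, changed by -0.98 ± 0.16. The 2 higher genes, Gsta3 (0.67 ± 0.10) and Nfe2l2, which encodes the Nrf2 activator of this group (0.57 ± 0.10), were higher in all 3 fits. Of 20 metallothionein and zinc transporter genes 3 were higher and 1 lower, Slc30a6, which was lower in all 3 fits (-0.38 ± 0.13). The 3, Slc39a8, Slc39a9 and Slc30a4, were all lost without control replicate 1, and 1 was left without control replicate 2, day 7 replicate 1 or day 7 replicate 2. After the exonic-length correction 1 was higher and 3 lower, and after the coding-length one 1 and 2. Slc30a6 lost its call without control replicate 2, control replicate 3 or any 1 day 7 replicate, at -0.42 to -0.33.

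**Figure D4:**
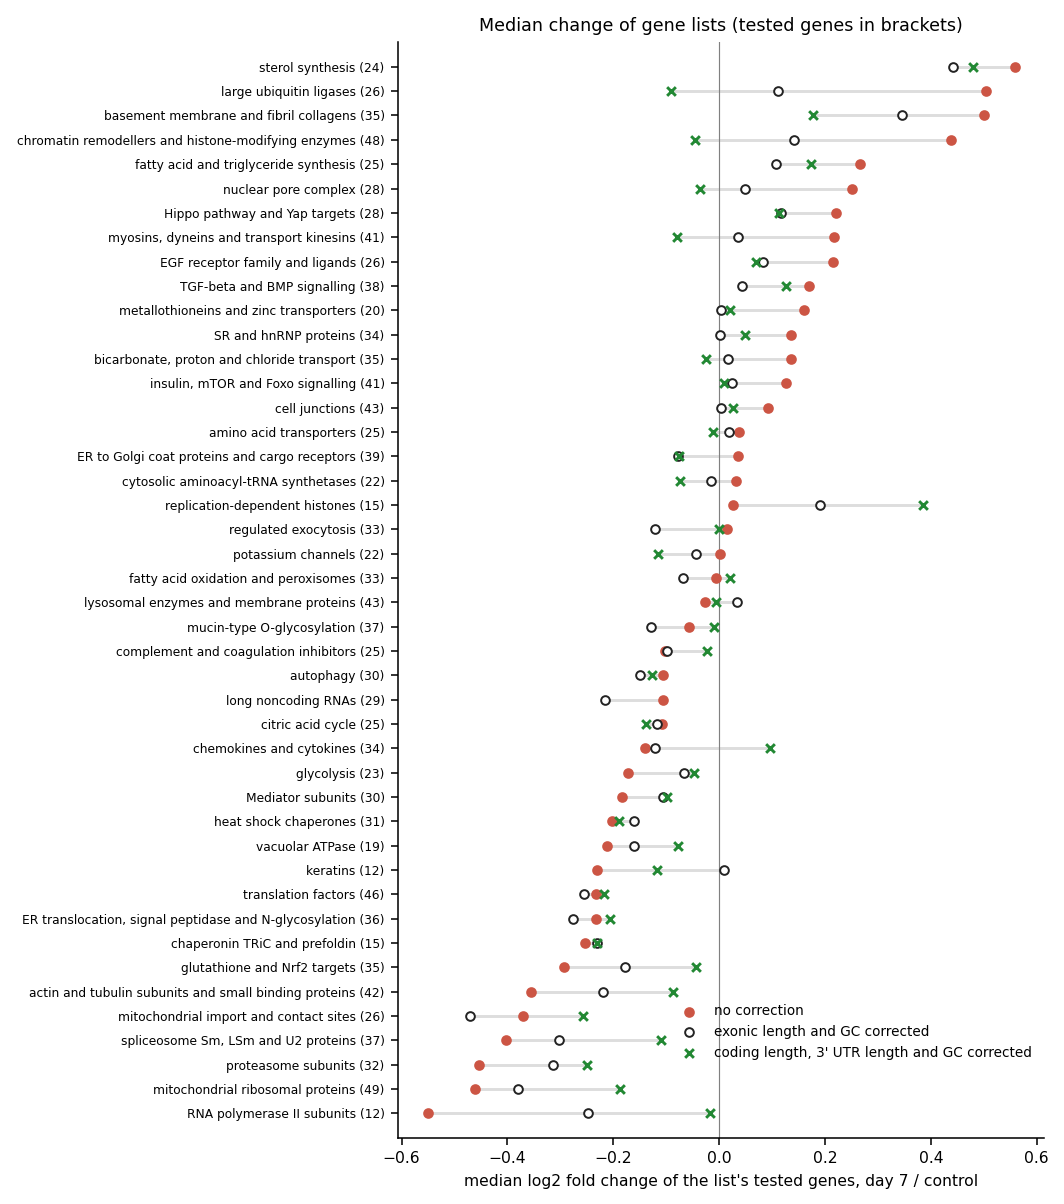
Median log2 fold change of 44 of the 45 gene lists, before correction (filled), after the exonic length and GC correction (open) and after the coding length, 3' UTR length and GC correction (crosses). Sterol synthesis is at 0.56, 0.44 and 0.48, while large ubiquitin ligases pass from 0.50 to 0.11 and -0.09.

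Of the secretory pathway's genes at the endoplasmic reticulum, 18 of 36 translocation, signal peptidase and N-glycosylation genes were lower, 2 higher and 16 not called, and 8 were lower in all 3 fits. Markers of secretory cells were lower beside them, with 7 of 10 acinar markers called lower as given above. B and plasma cell markers summed to between 1808 and 3011 CPM in the controls and between 1309 and 1543 CPM at day 7, with 3 of 7 tested called lower (Mzb1, Ighm and Derl3), none higher and none of the 11 listed at 0 in all 6 libraries. The median log2 fold change of the B and plasma cell markers was -1.22, and -0.96 after the exonic-length correction. The part of these cell types in the list's values was not tested. Sec61g, a small subunit of the translocation channel, read 108, 107 and 87.1 CPM in the controls and 47.7, 58.0 and 60.9 CPM at day 7 (-0.86 ± 0.11). Dad1, of the oligosaccharyl transferase, changed by -0.73 ± 0.10. The higher genes were Srp72 and Srp54a, of the signal recognition particle, and Srp54a has near-identical copies. Between the reticulum and Golgi, 13 of 39 coat and cargo receptor genes were higher and 16 lower, with a correlation to length of 0.71. After the coding-length correction 1 was higher and 4 lower. Sec16a, which marks exit sites, rose by 0.59 ± 0.10 and was at 0.08 after the coding-length correction. Tmed9, a cargo receptor, changed by -0.61 ± 0.10 and was lower in all 3 fits. The 16 were 9 without day 7 replicate 1.

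Of 33 regulated exocytosis genes 7 were higher and 5 lower, and Exoc4, of the exocyst tether, was higher in all 3 fits, at 36.9, 34.8 and 33.6 CPM in the controls and 62.9, 65.4 and 62.4 CPM at day 7. The 7 were 4, 3 and 4 without control replicate 1, control replicate 2 and day 7 replicate 1, and the 5 were 2 without control replicate 1, day 7 replicate 1 or day 7 replicate 2. The exonic-length correction gave 2 higher and 6 lower, and the coding-length correction 4 each way. Of 37 mucin-type O-glycosylation genes, central to a mucous gland, 4 were higher, 4 lower and 29 not called. The 4 higher were 2 without control replicate 1, control replicate 2 or day 7 replicate 2, and the 4 lower were 2 without day 7 replicate 1 or day 7 replicate 2. Galnt7, which adds O-linked sugars at further sites of partly glycosylated mucins, read 220, 236 and 299 CPM in the controls and 586, 552 and 540 CPM at day 7. Its change of 1.15 ± 0.12, adjusted p = 1.2e-05, was 0.74 after the coding-length correction, and it overlaps AW046200, among others, on the other strand. Galnt10, of the same enzyme family, was lower at -0.44 ± 0.11 in all 3 fits. Galnt1, another, was at -0.43 ± 0.16 and lost its call without control replicate 2 or 3, day 7 replicate 1 or 2, or day 14 replicate 1 or 3, at -0.46 to -0.28. Nans, which makes sialic acid, changed by -0.43 ± 0.10.

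In acid compartments, 8 of 19 vacuolar ATPase genes were lower and 1 higher, and none was called the same way in all 3 fits. The 8 were 5, 4 and 5 without control replicate 2, day 7 replicate 1 and day 7 replicate 2. Of 43 lysosomal genes 6 were lower, 5 higher and 32 not called; 11 were lower without control replicate 3, and 3 were higher without control replicate 2 or without day 7 replicate 2. Cd63, a membrane tetraspanin, changed by -0.70 ± 0.10, and by -0.18 after the coding-length correction. Of 30 autophagy genes 8 were lower and 7 higher. The small ubiquitin-like Gabarapl1 (-0.75 ± 0.10) and Gabarapl2 (-0.59 ± 0.11), which coat autophagosomes, were lower in all 3 fits. The 7 were 3 without control replicate 1 and 4 without day 7 replicate 2.

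Among ion channels, 4 of the 5 Kcnk genes in the potassium channel list, whose products carry background potassium currents, were lower. They were not a list of their own, and Kcnk genes outside that list were not examined. Of 22 potassium channel genes 5 were lower, 1 higher and 16 not called, and 4 of the lower ones were Kcnk genes called in all 3 fits. Kcnk1 read 219, 210 and 197 CPM in the controls and 121, 140 and 147 CPM at day 7 (-0.62 ± 0.09). Kcnk3 read 11.6, 8.09 and 8.98 CPM against 3.42, 4.06 and 4.19 CPM (-1.30 ± 0.23). Kcnk6 (-0.62 ± 0.13) and Kcnk5 (-0.58 ± 0.14) were also lower. All day 7 libraries lay below all controls for the 4, as they did for 3327 of the 15348 tested genes. Kcne3, an accessory subunit, was lower in the uncorrected fit alone (-0.90 ± 0.29) and lost that call without control replicate 1 or 2 or day 7 replicate 2, at -0.93 to -0.72. Kcnk2, the other Kcnk gene of the list, named after its value was seen, was at 0.16 ± 0.42. Without day 7 replicate 3 the list had 2 higher calls.

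Of 35 bicarbonate, proton and chloride transport genes 6 were higher, 2 lower and 27 not called, with 10 higher without control replicate 3. Car12, a membrane carbonic anhydrase, read 321, 268 and 274 CPM in the controls and 418, 400 and 420 CPM at day 7 (0.52 ± 0.09). Lrrc8a, the obligate subunit of volume-regulated anion channels, changed by -0.62 ± 0.16, and by -0.80 after the coding-length correction. Of 25 amino acid transporters 4 were higher and none lower. Slc6a6, for taurine (0.53 ± 0.09), and Slc36a1, a proton-coupled carrier (0.39 ± 0.10), were higher in all 3 fits.

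At cell junctions, 14 of 43 genes were higher, 8 lower and 21 not called, with a correlation to length of 0.68. After the coding-length correction 4 were higher and 5 lower. The higher count was 8, 7, 8 and 7 without control replicate 1, control replicate 2, day 7 replicate 1 and day 7 replicate 2. Tjp3 fell as described above, and its longer paralogue Tjp1, ZO-1, read 42.2, 46.9 and 56.2 CPM in the controls and 89.2, 83.6 and 70.0 CPM at day 7. Tjp1's change of 0.74 ± 0.12 was 0.16 and not called after the coding-length correction, whereas that of Tjp3 was -1.28. Cldn7, a claudin, changed by -0.80 ± 0.09, and Ctnnb1, beta-catenin, by 0.55 ± 0.10, both called in all 3 fits. Of 12 keratins 4 were lower and none higher, and Krt23 and Krt80 were lower in all 3 fits.

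Of 42 actin and tubulin subunits and small binding proteins 24 were lower, 4 higher and 14 not called, and 10 were lower in all 3 fits. Actb, cytoplasmic actin, read 630, 567 and 606 CPM in the controls and 439, 333 and 352 CPM at day 7 (-0.68 ± 0.10). Tuba4a, an alpha-tubulin, changed by -0.76 ± 0.10. Actin and tubulin genes are close copies, so reads could be split among them. Stmn1, which destabilises microtubules, went against the list, from 9.26, 10.7 and 10.1 CPM to 16.8, 31.2 and 24.2 CPM (1.26 ± 0.24). The 4 higher were 2 without control replicate 1, control replicate 2, day 7 replicate 2 or day 7 replicate 3.

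Of 41 myosins, dyneins and transport kinesins 13 were higher and 4 lower. The exonic-length correction gave 4 each way, and the coding-length correction turned the balance to 1 higher and 6 lower, with a median of -0.08. The 13 were 8 without control replicate 1 or day 7 replicate 2, and the 4 were 2 without day 7 replicate 2 or 3. Myo5c, a motor of secretory cells, rose by 0.78 ± 0.11 in all 3 fits. Dynll1, a dynein light chain, changed by -0.86 ± 0.09. Tiam1, an exchange factor for Rac, rose by 0.87 ± 0.13 in all 3 fits. Vav2, an exchange factor of the same kind (chr2:27262104-27427033, minus strand), read 45.9, 47.9 and 49.2 CPM in the controls and 25.8, 30.6 and 32.9 CPM at day 7. Its change of -0.68 ± 0.12 was -0.87 after the coding-length correction.

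Basement membrane and fibril collagen genes were higher in 22 of 35, lower in 1 and not called in 12, with a median of 0.50. After the exonic-length correction 14 were higher and after the coding-length correction 7, all of which were higher in the 3 fits. Lama5, the laminin chain of epithelial basement membrane, read 128, 126 and 118 CPM in the controls and 229, 243 and 205 CPM at day 7 (0.87 ± 0.09, adjusted p = 6.9e-06). Agrn, agrin, rose by 0.87 ± 0.10 and Col4a1, of the basement membrane network, by 0.70 ± 0.09. Col5a3, a minor fibril collagen, was the exception at -0.76 ± 0.18 in all 3 fits. Fibroblast markers summed to between 327 and 346 CPM in the controls and between 337 and 426 CPM at day 7, with 2 of 8 called higher, Col1a1 and Col3a1. Endothelial markers were apart between the groups, at 346 to 386 CPM in the controls and 425 to 509 CPM at day 7, with 2 of 8 called higher, Vwf and Tek. Myoepithelial and basal cell markers summed to between 834 and 958 CPM against 905 to 1075 CPM, with 2 of 7 called higher, Myh11 and Col17a1. The median log2 fold change of fibroblast markers was 0.12, and -0.11 after the exonic-length correction. Endothelial medians were 0.13 and 0.04, and myoepithelial and basal medians 0.07 and 0.27. No listed marker of the 3 cell types was at 0 in all 6 libraries, and their part in these rises was not tested.

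Of 41 insulin, mTOR and Foxo genes 10 were higher and 3 lower. Deptor, an mTOR-binding inhibitor, read 53.7, 66.2 and 69.8 CPM in the controls and 143, 109 and 103 CPM at day 7 (0.90 ± 0.13), and was higher in all 3 fits. Akt2, a kinase downstream of PI3-kinase, was lower in all 3 (-0.37 ± 0.09). Of 38 TGF-beta and BMP genes 9 were higher and 2 lower, Inhbb and Tgfb1. Smad4, the shared signal carrier, rose by 0.52 ± 0.10 and Acvr1b, a receptor, by 0.44 ± 0.10, each in all 3 fits. The 2 lower calls were 1 without control replicate 1 or 2 or without any 1 day 7 replicate.

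Of 26 EGF receptor family genes 6 were higher and 1 lower (Grb2, not called without day 7 replicate 2, at -0.29). Lrig1, which restrains those receptors, rose by 0.62 ± 0.09 in all 3 fits, and Nrg1, a ligand, by 1.03 ± 0.26. Of 28 Hippo pathway genes 9 were higher and none lower, 4 without control replicate 1 or without day 7 replicate 1. Tead1, the DNA-binding partner of Yap, read 17.7, 19.6 and 25.5 CPM in the controls and 41.2, 37.8 and 31.2 CPM at day 7 (0.81 ± 0.14). Amotl2, a Yap-binding junction protein, was the other member higher in all 3 fits (0.67 ± 0.18), with the call lost without control replicate 1 (0.52) or day 7 replicate 1 (0.47).

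Of 34 chemokines and cytokines, 7 were lower, 1 higher and 26 not called, and the 7 were 4 without control replicate 2. The balance turned with correction, to 3 higher and 2 lower for exonic length and to 4 higher and 3 lower, with a median of 0.10, for coding length. Ccl9 read 10.2, 17.5 and 14.5 CPM in the controls and 6.56, 5.60 and 4.51 CPM at day 7 (-1.34 ± 0.21). Its chromosomal neighbour Ccl6, like it a myeloid chemokine, read 8.41, 7.55 and 10.96 CPM against 4.50, 2.20 and 3.11 CPM (-1.46 ± 0.30). These 2 were lower in all 3 fits. Il33, an epithelial alarm cytokine, was the 1 higher gene, at 0.84 ± 0.24, and was not called without control replicate 1 (0.68) or day 7 replicate 1 (0.71). Macrophage and dendritic cell markers summed to between 156 and 169 CPM in the controls and between 88.3 and 147 CPM at day 7, with 2 of 11 called lower. Their median log2 fold change was -0.30, and -0.10 after the exonic-length correction. The part of these cells in the chemokine values was not tested. Markers of T and NK cells summed to between 6.61 and 7.21 CPM against 2.96 to 4.61 CPM, with none of 8 called.

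Of 25 complement and coagulation inhibitor genes 4 were lower and 1 higher, and none of the 5 was called after the exonic-length correction, which called 2 others higher and 1 lower. Serpinh1, a collagen chaperone, was among the lower (-0.44 ± 0.11), with C1qa, C1qb and C1qc, which encode the chains of C1q. Of 29 long noncoding RNAs 5 were lower and 2 higher, 3 lower without control replicate 1. Mirg, from an imprinted microRNA cluster, read 17.7, 11.99 and 14.97 CPM in the controls and 7.27, 6.805 and 7.51 CPM at day 7 (-1.05 ± 0.19), and -1.22 after the exonic-length correction. The other lower calls were the snoRNA host genes Snhg20, Snhg18, Snhg8 and Gas5. Trp53cor1, a p53-linked RNA, was at 0.244, 1.01 and 1.02 CPM in the controls and 2.28, 1.87 and 2.25 CPM at day 7. The 2 higher calls, with Ftx, were both lost without control replicate 1, day 7 replicate 1 or day 7 replicate 3, and 1 was left without control replicate 2 or without day 7 replicate 2.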

How the data were processed

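RNA-seq of total RNA from sublingual gland sections was deposited by the authors as raw read counts per gene, 1 table per library. STAR, featureCounts, DESeq2 and mm10 are named per the submitters' processing notes. For versions, settings, annotation and strand the entry is: not given in the sources used here. Of 54532 Ensembl identifiers, 54495 matched GENCODE M21 (GRCm38), the source of symbols, lengths and coordinates.

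Counts of all 9 libraries were filtered (filterByExpr, 39184 genes removed), scaled by trimmed means and fitted by group in edgeR 4.0.16 (R 4.3.3; quasi-likelihood F test, robust, 6 residual degrees of freedom). Groups came from the titles and treatment labels. Adjusted p-values are Benjamini-Hochberg over 15348 genes. The SE is the absolute log2 fold change divided by the square root of F. Library differences used log2(CPM + 0.5). A count of 3 corresponds to between 0.161 and 0.202 CPM in the 6 libraries. Replicates differed beyond sampling noise. Length corrections were per-library offsets from natural splines with 5 degrees of freedom.

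Members and lists were chosen with earlier results of these data known. Named genes were the 12 largest rises and falls (mean of at least 5 CPM, groups not overlapping, without predicted, immunoglobulin, ribosomal protein and MHC genes and a written list of cell cycle and p53 genes, which did not hold Wee1 or Trp53i11), up to 5 members per list by smallest p, its longest and shortest member, and all called members of a direction holding at most 5 calls. The uncorrected edgeR fit alone was tested on simulated counts, which had the same spread for all genes and no trend with length. Alternatives used DESeq2 1.42.0, limma 3.58.1, other filters, a replicate block and each library left out. Promoter windows are the bases before each start in RefSeq (GRCm38.p6), searched on both strands. Some genes and 1 list are not reported here.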

Additional observations from a re-analysis of the deposited data

How the results depend on the processing

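Calls numbered 4709 with DESeq2 size factors, 4680 with no filter, 4739 with a minimum of 1 CPM, 4479 from the 6 libraries alone, 4956 by DESeq2 and 5260 by limma-voom. An adjusted p of 0.01 left 2631 (1295 higher, 1336 lower), and a log2 fold change of at least 1 left 547 (412 higher, 135 lower). Leaving out 1 library at a time gave 3106 to 5314 calls, 1577 to 2724 higher and 1513 to 2590 lower, a correlation with exonic length of 0.370 to 0.420, and medians of -0.410 to -0.345 in the shortest decile and 0.306 to 0.447 in the longest. The lowest count came without day 7 replicate 1 and the highest without control replicate 3. Of 40 list counts above 5, 20 moved by over 1.5 times without some library. The correlation was 0.105 with no filter (shortest decile 0), 0.472 with a minimum of 1 CPM (shortest decile -0.415), 0.510 in protein-coding genes and 0.629 in genes of at least 10 CPM.

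With the length and GC correction, 1283 genes were higher, the correlation was -0.00295 and the extreme deciles were -0.0144 and 0.00406. Keratins reversed to a median of 0.00949, and so did Slc39a9 (-0.0304), Krt18 (0.116), Sf3b3 (-0.0102), Hspb1 (0.0769) and Myl9 (0.0950). With the coding-length correction 2159 were called (959 higher, 1200 lower), the correlation was 0.0322 and the extreme deciles were -0.0633 and -0.0538. Its reversed list medians were -0.0910 for large ubiquitin ligases, -0.0463 for chromatin enzymes, -0.0363 for the nuclear pore, -0.0257 for bicarbonate transport, -0.0799 for myosins and -0.00694 for a list not described here. Its reversed genes were Son (-0.0136), Slc4a7 (-0.0617), Krt18 (0.00160), Lats1 (-0.113), Insr (-0.0821), Mif (0.0919), Cxcl14 (0.0913), Cxcl17 (0.0778), Eif1b (0.0545), Sf3b1 (-0.0984), Sf3b3 (-0.0753), Chd9 (-0.0226), Pmvk (0.0879), Hspb1 (0.208), Npc1 (-0.112), Rb1cc1 (-0.154), Kif1b (-0.118), Dynll2 (0.205), Myl9 (0.184), Pard3 (-0.0865), Rictor (-0.0726) and Lama2 (-0.0229). Of 359 named genes 262 stayed on the same side of the threshold with the first correction, and 193 of 350 with the second. These corrections remove the trend by construction.

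Same-numbered control and day 7 libraries correlated at -0.112, 0.0163 and -0.0938 in their deviations from the group mean. Differently numbered ones correlated at -0.0716 to 0.158. With 3 libraries per group these values cannot decide whether replicate numbers pair the samples. With a replicate block 4319 genes were called (2231 higher, 2088 lower), with a correlation of 0.420 and extreme deciles of -0.371 and 0.387. With the block and the length correction 3031 were called (1199 higher), the correlation was -0.00340, the extreme deciles were -0.0130 and 0.00503, the keratin median was 0.0116, and Slc39a9 was at -0.0308, Krt18 at 0.117, Sf3b3 at -0.0118, Hspb1 at 0.0698 and Myl9 at 0.0867. Of 359 named genes 10 lost their call under the block alone, among them 3 of the 24 largest changes, Slc10a5 (adjusted p = 0.065), Pik3c2a (adjusted p = 0.067) and Scgb1b27 (adjusted p = 0.061).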
